A study of Mus musculus with 18 samples.

Results

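The 10 genes described here are targets of the transcription factor p53 that act in DNA repair (Ercc5, Ddb2, Xpc and Polk), in nucleotide supply (Rrm2b), in the restraint of growth signalling (Sesn1 and Sesn2) and in cell cycle arrest (Plk2, Psrc1 and Btg2). They were taken by gene symbol: every probe set annotated to one of these symbols alone was used, which gave 18 probe sets for 10 of the 12393 genes on the array. The arrays measured RNA from 18 microdissected lung tumours of 6 mice of strain C57/B6-129SvJae, collected when the animals were 10 weeks old. Treated tumours came from mice given tamoxifen into the abdomen in 2 injections and were taken 7 days after the first, and the labels call them p53 restored. The untreated tumours carry no such label. Grade 3 tumours are adenocarcinomas and grade 2 tumours are adenomas, per the labels. The groups were 6 treated grade 3 tumours, 4 untreated grade 3 tumours, 4 treated grade 2 tumours and 4 untreated grade 2 tumours. The labels used here name no driver allele and no Cre. From what is known of the study, the tumours carry a silenced p53 gene that tamoxifen switches back on, in treated and untreated mice alike before treatment.

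p53 is a transcription factor that is stabilised by DNA damage and by oncogene signalling and then switches on a set of target genes. The best known outcomes are arrest of the cell cycle, senescence and cell death, but many targets have quieter roles: they repair DNA, supply nucleotides for repair, limit oxidative stress or slow growth signalling. In lung tumours, loss of p53 is a known step towards adenocarcinoma. The comparisons ask how these targets differ between restored and unrestored tumours of each grade, and between grades.

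The limits of the design bear on every value below. A single mouse, 8688, the only female, bore the whole treated grade 3 group and 3 of the grade 2 tumours in the treated set; the other grade 2 tumour of that set came from male mouse 8639. The untreated tumours came from 4 males: 8584, 8629 and 8565 gave the grade 3 tumours, and 8700 and 8565 gave the grade 2 tumours. Treatment, animal and sex therefore cannot be told apart. With sex as a covariate, the sex term and the treatment differences rest on 8639T4, the only treated male. No result with sex below can separate sex from treatment. Since tumours sharing an animal are not independent, the p-values given here are smaller than they should be. Surfactant genes were high in every tumour (Sftpc ran from 12.31 to 13.49 on the log2 scale). The probe set used for Nkx2-1, the lung lineage regulator, was below the array median throughout (3.21 to 4.26). Whether that probe set detects the transcript was not tested, so its low signal does not show that Nkx2-1 was absent. In RNA quality 2 tumours stood apart: the 3′ minus 5′ signal of the Gapdh and beta-actin control probe sets was 2.62 in 8688T3 and 1.85 in 8639T4, against 0.62 to 1.05 in the other tumours.

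No member passed an adjusted p of 0.05 in any of the 6 comparisons, with limma and Benjamini-Hochberg adjustment over 7300 genes. Of the 10 members, 9 passed the filter on low values; Sesn2 did not. The signal is a deposited log2 value (GCRMA) of each gene's probe set with the highest mean, and differences are fitted log2 differences with their SE. In grade 3, 0 of 9 members were called, against 0.466% of all genes. In grade 2 it was 0 of 9 against 0.0685%, and over both grades 0 of 9 against 0.63%. At an unadjusted p under 0.05, 4 of 9 members were higher in treated grade 3 tumours, against 5.23% of all genes, namely Ercc5, Plk2, Psrc1 and Rrm2b. In grade 2 these were 2 of 9 (Psrc1 and Xpc) against 3.78%, and over both grades 2 of 9 (Ercc5 and Psrc1) against 4.63%. The same 4 genes were the members whose treated grade 3 tumours all lay above all untreated grade 3 tumours, 4 of 9 against 2.84% of genes. In grade 2 no member separated in this way, against 4.04% of genes. The median difference of the 9 members was 0.46 in grade 3, 0.29 in grade 2 and 0.28 over both grades, against 0.04, 0.02 and 0.03 for all genes tested. Psrc1 passed the filter on low values only through the tumours in which it is high, so its place in these counts and medians is no support for a difference.

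**Figure D1:**
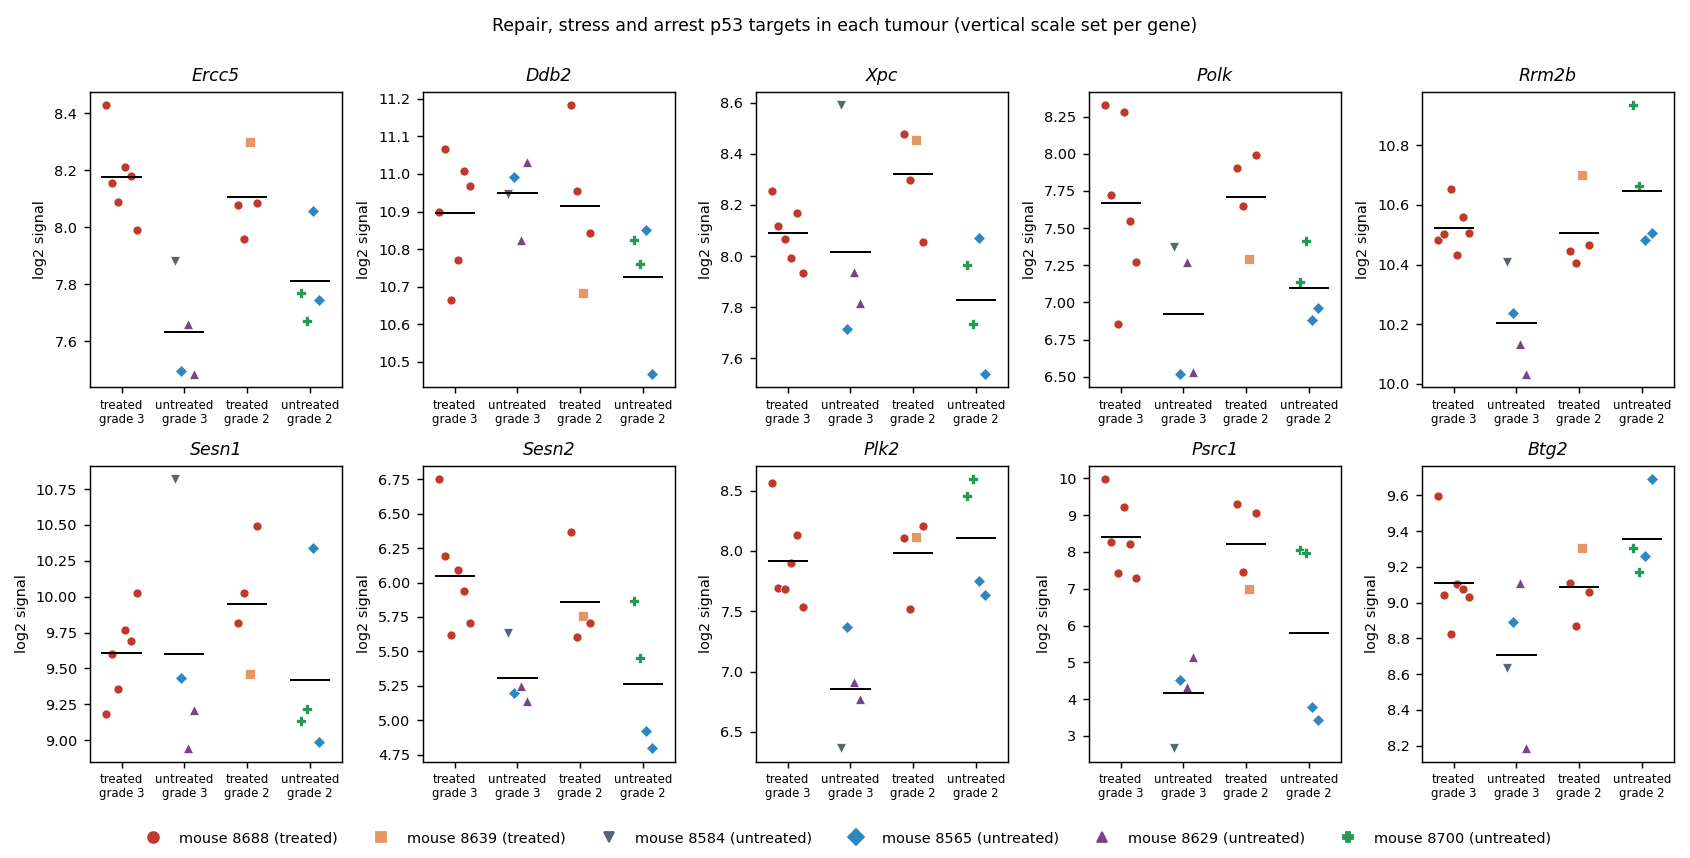
Log2 signal of the 10 members in each of 18 tumours, by group, with the vertical scale set for each gene. Points are tumours, coloured and shaped by mouse, and black lines are group means; in Psrc1 the 2 untreated tumours of mouse 8700 lie at 8.05 and 7.97, with the treated tumours.

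Promoter sequences are shown for the 3 arrest genes and for Sesn1, because Psrc1 had the largest treated minus untreated difference of the members, Plk2 and Btg2 were both lower in untreated grade 3 than in untreated grade 2 tumours, and the Sesn1 window held the best match to a p53 site. The windows are RefSeq's, in build GRCm38.p6, from 250 bases before to 50 bases after a gene start, 5′ to 3′ on the gene's strand; 7 members had 10 such windows. They lie at chr3:108383554-108383853 (plus strand) for Psrc1, chr13:110394794-110395093 (plus) for Plk2, chr1:134079106-134079405 (minus) for Btg2 and chr10:41887189-41887488 (plus) for the second Sesn1 start. Capitals mark the cyclic AMP response element TGACGTCA in Plk2 and Btg2, and a pair of p53 half-sites in Sesn1.
Psrc1 promoter: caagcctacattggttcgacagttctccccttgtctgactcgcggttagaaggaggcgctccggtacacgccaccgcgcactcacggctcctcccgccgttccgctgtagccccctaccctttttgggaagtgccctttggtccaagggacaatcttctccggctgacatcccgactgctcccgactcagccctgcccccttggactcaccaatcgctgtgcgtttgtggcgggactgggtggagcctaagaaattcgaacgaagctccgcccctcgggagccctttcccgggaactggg
Plk2 promoter: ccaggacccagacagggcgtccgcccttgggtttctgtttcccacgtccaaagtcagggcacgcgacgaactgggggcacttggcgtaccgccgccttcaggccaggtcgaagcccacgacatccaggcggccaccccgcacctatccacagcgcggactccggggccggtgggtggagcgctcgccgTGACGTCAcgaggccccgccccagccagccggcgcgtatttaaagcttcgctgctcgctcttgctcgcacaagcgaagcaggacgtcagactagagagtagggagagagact
Btg2 promoter: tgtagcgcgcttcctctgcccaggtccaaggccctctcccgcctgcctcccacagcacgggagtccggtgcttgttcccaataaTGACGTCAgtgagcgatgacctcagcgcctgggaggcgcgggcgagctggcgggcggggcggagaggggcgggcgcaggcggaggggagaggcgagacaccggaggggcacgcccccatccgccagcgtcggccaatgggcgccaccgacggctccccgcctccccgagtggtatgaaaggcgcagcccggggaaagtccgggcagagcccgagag
Sesn1 promoter: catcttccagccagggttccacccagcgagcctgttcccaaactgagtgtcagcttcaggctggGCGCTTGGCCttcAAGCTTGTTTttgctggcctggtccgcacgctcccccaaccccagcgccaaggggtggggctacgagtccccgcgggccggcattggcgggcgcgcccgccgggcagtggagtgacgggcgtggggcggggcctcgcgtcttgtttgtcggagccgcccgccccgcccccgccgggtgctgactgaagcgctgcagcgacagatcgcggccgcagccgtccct

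An exact match to the 10-base p53 half-site consensus, searched by name on both strands, stood in 2 of the 10 member windows (this Sesn1 window and 1 of Polk), against 8.4% of 32851 windows. A pair of half-sites no more than 13 bases apart, with at most 2 mismatches in all, stood in 1 (the Sesn1 window, with 3 bases between them), against 4.09% of windows. The cyclic AMP response element, a known site of the CREB and ATF factors, was looked for after the sequences had been read. It reads the same on both strands. It stood in 2 of the 10 windows, Plk2 and Btg2, against 1.79% of all windows. The Psrc1 windows held neither. These matches describe letters in short windows and say nothing of what binds there.

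Of the repair genes, Ercc5 had grade 3 groups that did not overlap, while those of Ddb2, Xpc and Polk did. Ercc5 encodes XPG, the endonuclease that cuts the damaged strand in nucleotide excision repair. In treated grade 3 tumours its log2 signal was 7.99 at the lowest, 8.17 at the median and 8.43 at the highest, against 7.88, 7.49, 7.66 and 7.49 in untreated grade 3 tumours. The groups did not overlap, though the gap between 7.99 and 7.88 was small, and the highest untreated value was that of mouse 8584. The fitted difference was 0.60 (SE 0.15, adjusted p = 0.0886 in limma), and without mouse 8584 it was 0.66 with an adjusted p of 0.0106, so the side of the threshold depends on this tumour. It depends on the model as well, since with all tumours and no animal term the adjusted p was 0.0112. In grade 2, Ercc5 was 8.08, 7.96, 8.30 and 8.08 in treated tumours and 7.77, 7.67, 8.06 and 7.74 in untreated tumours. These groups overlapped, through the untreated tumour 8565T3 at 8.06, and the fitted difference was 0.29 (SE 0.15, adjusted p = 0.75). Over both grades the difference was 0.44 (SE 0.12, adjusted p = 0.128).

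Ddb2 encodes the damage sensor that finds ultraviolet lesions in chromatin. p53 is known to activate it in human cells, and in mouse cells this link was reported to be missing. Its log2 signal ran from 10.66 to 11.07 in treated grade 3 tumours (median 10.93), against 10.95, 10.99, 10.82 and 11.03 in untreated grade 3 tumours. The untreated values lay inside the treated range, and the fitted difference was -0.12 (SE 0.15). In grade 2 Ddb2 was 11.18, 10.96, 10.68 and 10.84 in treated tumours, against 10.82, 10.76, 10.85 and 10.47 in untreated tumours, with a difference of 0.17 (SE 0.15). The second Ddb2 probe set differed by -0.10 in grade 3 (SE 0.20) and by -0.09 in grade 2 (SE 0.20). In grade 2 the probe sets thus had opposite signs, each within about an SE of 0.

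Xpc encodes the sensor that starts repair across the genome by binding distorted DNA. In treated grade 2 tumours Xpc was 8.48, 8.30, 8.45 and 8.05, against 7.96, 7.74, 8.07 and 7.54 in untreated grade 2 tumours. The groups met at one point, the treated tumour 8688T10 at 8.05 against the untreated 8565T3 at 8.07. The fitted difference was 0.47 (SE 0.20, unadjusted p = 0.032, adjusted p = 0.684). In grade 3 Xpc ran from 7.93 to 8.26 in treated tumours, with a median of 8.09, against 8.59, 7.71, 7.94 and 7.82 in untreated tumours. The untreated tumour of mouse 8584 had the highest Xpc of all 18, and the fitted difference was 0.09 (SE 0.20).

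Polk encodes DNA polymerase kappa, which copies past bulky lesions. Its log2 signal was 8.33, 7.72, 6.85, 8.28, 7.55 and 7.27 in treated grade 3 tumours and 7.37, 6.52, 7.27 and 6.53 in untreated grade 3 tumours. The treated group was the wider one and its lowest tumour was 8688T3, the tumour with the largest 3′ excess. The fitted difference was 0.63 (SE 0.35, adjusted p = 0.626). In grade 2 Polk was 7.91, 7.65, 7.29 and 7.99 in treated tumours, against 7.14, 7.41, 6.88 and 6.96 in untreated tumours, a difference of 0.51 (SE 0.36). The lowest treated grade 2 value was that of 8639T4, the other tumour with the 3′ excess; without both such tumours Polk's treated grade 2 values all lay above the untreated ones, as 7.47% of genes did. The part of RNA quality in the Polk values was not tested. The other Polk probe set was below the array median on every array, at 2.81 to 4.04.

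Rrm2b encodes p53R2, the small ribonucleotide reductase subunit that supplies deoxynucleotides to resting cells. Its log2 signal was 10.48, 10.50, 10.65, 10.43, 10.56 and 10.50 in treated grade 3 tumours, against 10.41, 10.24, 10.13 and 10.03 in untreated grade 3 tumours. The groups did not overlap, though the nearest tumours were close, and the fitted difference was 0.33 (SE 0.13, adjusted p = 0.409). In grade 2 Rrm2b was 10.44, 10.41, 10.70 and 10.47 in treated tumours, against 10.94, 10.66, 10.48 and 10.51 in untreated tumours. In 3 of the treated tumours Rrm2b was below all untreated ones, while in 8639T4 it was above 3 of them, and the difference was -0.11 (SE 0.13). Without 8688T3 and 8639T4, Rrm2b and Btg2 were the 2 members whose treated grade 2 tumours all lay below the untreated ones, as in 7.45% of genes.

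The sestrins restrain the growth kinase complex mTORC1, in part by sensing leucine through the GATOR complexes, and limit oxidative stress. Sesn1 showed no separation by treatment. Its log2 signal ran from 9.19 to 10.02 in treated grade 3 tumours, with a median of 9.65, against 10.82, 9.44, 8.94 and 9.21 in untreated grade 3 tumours. The highest of all 18 tumours was the untreated one of mouse 8584, and the fitted difference of -0.14 (SE 0.41) was 0.36 (SE 0.31) without it. In grade 2 Sesn1 was 9.81, 10.02, 9.46 and 10.49 in treated tumours and 9.13, 9.22, 10.34 and 8.98 in untreated tumours, a difference of 0.43 (SE 0.42). The other 2 Sesn1 probe sets differed by 0.43 (SE 0.26) and 0.30 (SE 0.23) in grade 3, and by -0.01 (SE 0.26) and -0.03 (SE 0.23) in grade 2. The Sesn1 probe sets therefore disagree on the sign in both grades, and no direction is given for this gene.

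Sesn2 was above the array median on 3 of the 18 arrays, so it did not enter the test; these were the treated tumours 8688T1 (6.75), 8688T8 (6.37) and 8688T2 (6.19). In treated grade 3 tumours it was 6.75, 6.19, 5.62, 6.09, 5.94 and 5.71, against 5.64, 5.20, 5.25 and 5.14 in untreated grade 3 tumours. The groups met at 5.62 in 8688T3 against 5.64 in mouse 8584. In treated grade 2 tumours it was 6.37, 5.60, 5.76 and 5.71, against 5.87, 5.45, 4.92 and 4.80 in untreated grade 2 tumours, where the high values were both from mouse 8700. With no filter on low values the differences were 0.67 in grade 3 (SE 0.29, adjusted p = 0.461), 0.59 in grade 2 (SE 0.30, adjusted p = 0.78) and 0.63 over both grades (SE 0.24, adjusted p = 0.415). Its second probe set lay at 5.19 to 5.96 in treated grade 3 tumours, against 4.88 to 5.20 in untreated grade 3 tumours.

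Psrc1 had the largest fitted difference of the 9 tested members. It encodes a microtubule-binding protein of the mitotic spindle, also called DDA3, first described in mouse cells as a p53-induced gene. Psrc1 was 9.97, 8.28, 7.42, 9.23, 8.23 and 7.29 in treated grade 3 tumours, against 2.67, 4.53, 4.33 and 5.14 in untreated grade 3 tumours. The groups lay far apart, and even the lowest treated tumour, at 7.29, was well above the highest untreated one, at 5.14. The fitted difference was 3.76 (SE 1.05, adjusted p = 0.144). It did not pass the threshold. Psrc1 was above the array median on 12 arrays, those of the 10 treated tumours and of mouse 8700; its other untreated values lie below every array median (6.05 to 6.18) and may sit at background, so the exact size of the difference is uncertain. In grade 2 Psrc1 was 9.30, 7.47, 7.01 and 9.05 in treated tumours and 8.05, 7.97, 3.79 and 3.42 in untreated tumours, a difference of 2.41 (SE 1.07, unadjusted p = 0.038, adjusted p = 0.695). The untreated grade 2 tumours fell into pairs by animal: the high pair was mouse 8700 and the low pair mouse 8565.

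The value without each of these animals shows how much rests on them. Without mouse 8700, the Psrc1 difference was 4.00 in grade 3 (adjusted p = 0.0353 in limma) and 4.29 over both grades (adjusted p = 0.0268). Mouse 8700 is the untreated animal whose Psrc1 was like the treated tumours, and Psrc1 passed the filter only where it was high. These p-values are thus no support. Without mouse 8565, the grade 2 difference was -0.01 (SE 1.13), because mouse 8700 was then the only untreated grade 2 animal. The second Psrc1 probe set showed the same order. It was 8.16, 6.06, 5.44, 7.25, 6.11 and 5.15 in treated grade 3 tumours, against 2.92, 3.69, 3.59 and 3.97 in untreated grade 3 tumours, and its fitted difference was 2.45 (SE 0.77, adjusted p = 0.241 over probe sets). It too was high in mouse 8700, at 6.05 and 5.71, against 3.54 and 3.35 in the untreated grade 2 tumours of mouse 8565. The third was dim on every array, at 3.54 to 5.19 in treated grade 3 tumours and 2.85 to 3.60 in untreated grade 3 tumours, where the groups overlapped slightly.

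Mouse 8700 was high in some members and not in others. Its untreated grade 2 tumours exceeded those of mouse 8565 by 4.40 in Psrc1, 0.83 in Plk2, 0.80 in Sesn2, 0.35 in Polk and 0.31 in Rrm2b. The difference was 0.13 in Ddb2, 0.05 in Xpc, -0.18 in Ercc5, -0.23 in Btg2 and -0.49 in Sesn1. Cdkn1a, which encodes the arrest protein p21 and is the standard p53 target, was 10.80 and 10.63 in mouse 8700, against 9.02 and 8.88 in the grade 2 tumours of mouse 8565. These compare single animals and have no test. The untreated tumour of mouse 8584 was unlike both: its Cdkn1a was 10.40, near the treated tumours, while its Psrc1, at 2.67, and its Plk2, at 6.36, were the lowest of all 18. Whether p53 was active in the untreated animals 8700 and 8584 was not tested.

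**Figure D2:**
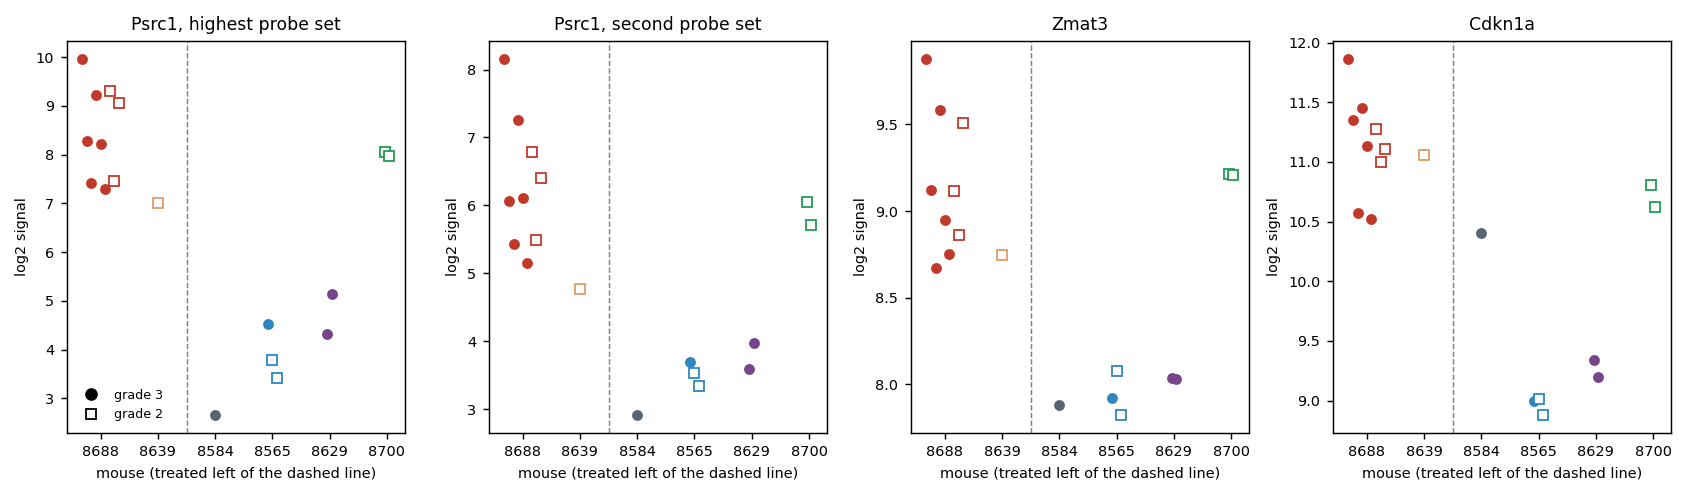
Log2 signal of both brighter Psrc1 probe sets, Zmat3 and Cdkn1a by mouse, with treated mice left of the dashed line and untreated mice right of it; filled circles are grade 3 and open squares grade 2 tumours. Mouse 8700 lies with the treated mice in all 4 panels, and mouse 8584 is high only in Cdkn1a, at 10.40.

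Plk2 encodes a polo-like kinase of G1 and S phase that p53 induces after damage. It was 8.56, 7.69, 7.69, 7.90, 8.13 and 7.54 in treated grade 3 tumours, against 6.36, 7.37, 6.91 and 6.77 in untreated grade 3 tumours. The groups did not overlap, and the fitted difference was 1.03 (SE 0.31, adjusted p = 0.198). In grade 2 Plk2 was 8.11, 7.51, 8.11 and 8.20 in treated tumours and 8.45, 8.59, 7.75 and 7.63 in untreated tumours. Here the highest values were those of the untreated mouse 8700, and the difference was -0.02 (SE 0.32). Without mouse 8700 it was 0.46 (SE 0.36), so the sign in grade 2 rests on that animal.

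Btg2 encodes an antiproliferative protein that recruits the CCR4-NOT deadenylase, and it is also an immediate early gene. Its log2 signal was 9.59, 9.04, 8.82, 9.11, 9.07 and 9.03 in treated grade 3 tumours, against 8.63, 8.89, 9.11 and 8.19 in untreated grade 3 tumours. The groups overlapped and the difference was 0.46 (SE 0.23, adjusted p = 0.586). In grade 2 Btg2 was 9.11, 8.87, 9.31 and 9.06 in treated tumours and 9.31, 9.17, 9.26 and 9.69 in untreated tumours. The treated tumours were the lower ones apart from 8639T4, with a difference of -0.23 (SE 0.23, adjusted p = 0.873).

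The second Btg2 probe set gave -0.39 in grade 3 (SE 0.79) and -1.10 in grade 2 (SE 0.81). Its lowest values were 4.08 in 8688T3 and 4.86 in 8639T4, the 2 tumours with the 3′ excess. In the other 16 tumours it ran from 5.86 to 8.02. The brighter probe set was 8.82 and 9.31 in these tumours, inside the range of the rest. The part of RNA quality in the Btg2 values was not tested.

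**Figure D3:**
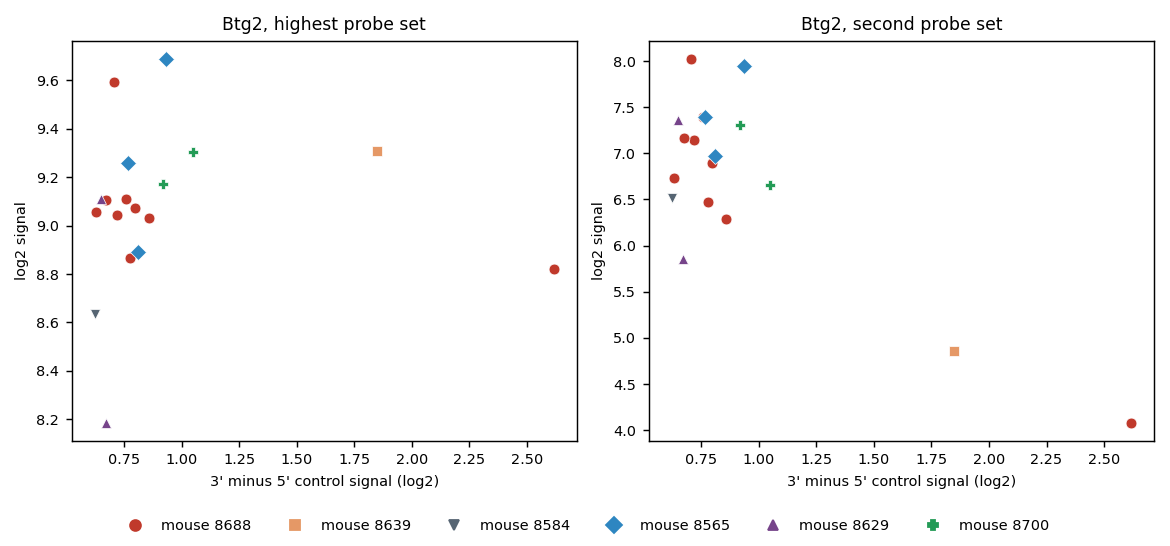
Log2 signal of both Btg2 probe sets against the 3′ minus 5′ signal of the Gapdh and beta-actin controls (log2), 1 point per tumour, coloured and shaped by mouse. In the second probe set the tumours at 2.62 and 1.85 are the lowest, at 4.08 and 4.86; in the brighter one they are not.

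By grade in untreated tumours, no member passed the threshold: 0 of 9 were called, against 0.178% of genes. Plk2, Rrm2b and Btg2 were lower in untreated grade 3 than in untreated grade 2 tumours at an unadjusted p under 0.05, 3 of 9 members against 6.7% of genes. The same 3 had every grade 3 tumour below every grade 2 tumour, against 3.03% of genes. The differences were -1.11 for Plk2 (SE 0.28, adjusted p = 0.137), -0.40 for Rrm2b (SE 0.12, adjusted p = 0.182) and -0.64 for Btg2 (SE 0.21, adjusted p = 0.233). Psrc1 differed by -1.29 (SE 0.95), and without mouse 8700 by 0.61 (SE 0.84). Mouse 8565 gave untreated tumours of both grades: within it, grade 3 minus the mean of grade 2 was -0.32 in Plk2, -0.26 in Rrm2b and -0.58 in Btg2, from 1 tumour against 2. Since every untreated grade 3 tumour lay below every untreated grade 2 tumour in these 3 genes, the sign within that animal was fixed in advance. It is no further support. All 3 values were smaller in size there than the fitted differences, that of Plk2 most of all.

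In treated tumours no member differed by grade at either threshold. The limma test called 0 of 9, against 0.0% of genes. None had an unadjusted p under 0.05, against 141 of 7300 genes, so few that 0 of 9 says little about the members. Within mouse 8688, grade 3 minus grade 2 was -0.03 in Plk2, 0.08 in Rrm2b, 0.10 in Btg2, -0.20 in Psrc1 and 0.14 in Ercc5, from 6 tumours against 3. The largest in size was -0.51, in Sesn1.

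The difference between the grades' responses was tested as an interaction. It called 0 of 9 members, and 0.0% of all genes. At an unadjusted p under 0.05, 3 of 9 members had a larger treated minus untreated difference in grade 3 than in grade 2, against 5.4% of genes. They were Plk2 (1.05, SE 0.37), Rrm2b (0.44, SE 0.15) and Btg2 (0.69, SE 0.27), each with an adjusted p of 0.539. These comparisons share the untreated tumours with the grade comparison above, in which the same 3 genes had low values in untreated grade 3 tumours. Ercc5 had an interaction of 0.30 (SE 0.17) and Psrc1 one of 1.35 (SE 1.22), which was -0.57 (SE 1.01) without mouse 8700.

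**Figure D4:**
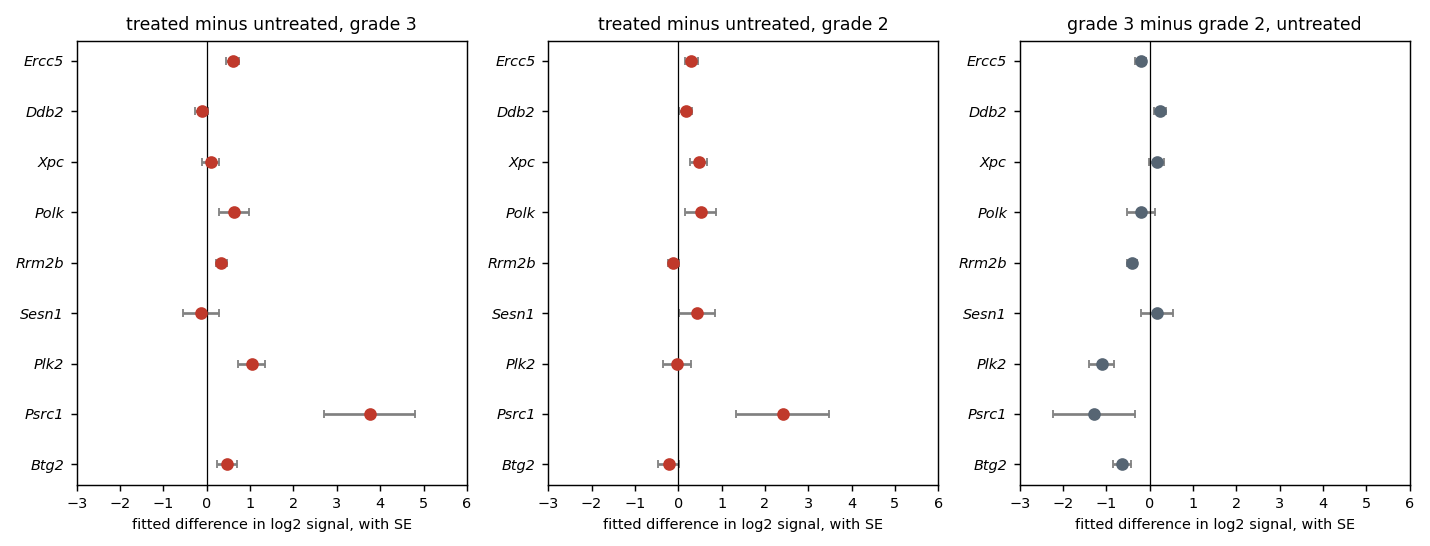
Fitted differences in log2 signal for the 9 tested members, with SE bars: treated minus untreated in grade 3 and in grade 2, and grade 3 minus grade 2 in untreated tumours. Psrc1 lies furthest from 0 in both treatment panels (3.76 and 2.41). From the grade 3 to the grade 2 panel, Rrm2b, Btg2 and Plk2 (-0.02 in grade 2) pass from above to below 0. Ddb2 and Sesn1 pass from below to above 0.

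Among the tested genes, those most like a member over the 18 tumours were named by the Pearson correlation of deviations from the 4 group means, as a description with no test. For Psrc1 these were Dglucy (0.94), Zmat3 (0.92) and Cdk5 (0.86). Zmat3 encodes a p53-induced RNA-binding protein, and Dglucy a D-glutamate cyclase. Zmat3 was 9.21 and 9.21 in the untreated tumours of mouse 8700, against 8.08 and 7.83 in the grade 2 tumours of mouse 8565. Dglucy was 7.72 and 8.07 in mouse 8700, against 5.50 and 5.87 in those of mouse 8565. For Plk2 they were Atmin (0.84), Hspa9 (0.79) and Psrc1 itself (0.79). Deviations of tumours of 1 mouse are shared, so these values describe animals as much as tumours.

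The other members were most like genes of other kinds. Ercc5 went with Inpp5b (0.83), St6galnac4 (0.78) and Gpc1 (0.78), and Xpc with Parp4 (0.90), Inpp5b (0.90) and Ikbkg (0.87). Ercc5 and Xpc correlated with each other at 0.74. Ddb2 went with Dhps (0.87), Gnptab (0.86) and Usp14 (0.85). Polk went with Rabac1 (0.90), Net1 (0.89) and Orc6 (0.84), Rrm2b with Crlf3 (0.91), Mafk (0.90) and Dstyk (0.89). Sesn1 went with Dr1, Cpd and Washc2 (0.94 each), and Btg2 with Pfn1 (0.86), Aox3 (0.84) and Clstn1 (0.83). Towards the 20 tested mitosis genes, the median correlation was -0.74 for Rrm2b and -0.59 for Xpc, against 0.01 for Psrc1 and -0.07 for Plk2.

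The members' own pathways were set beside them from lists of related genes. Of 20 other p53 targets tested, 0 were called in any treatment comparison. At an unadjusted p under 0.05, 9 were higher in grade 3, 6 in grade 2 and 8 over both grades. The shares over all genes were 5.23%, 3.78% and 4.63%. In grade 3, 1 target (Sfn) was lower at that level, as were 263 of 7300 genes. The median difference of the 20 targets was 0.41 in grade 3 and 0.19 in grade 2. Ccng1, a cyclin G that feeds back on p53, differed by 0.80 in grade 3 (SE 0.20, adjusted p = 0.0886), and Phlda3, an inhibitor of AKT, by 1.52 (SE 0.38, adjusted p = 0.103). Cdkn1a differed by 1.53 (SE 0.43, adjusted p = 0.151). Without mouse 8584, 5 of the 20 were called in grade 3 (Ccng1, Cdkn1a, Fas, Phlda3 and Trp53inp1), against 168 of 7300 genes. With no animal term 8 were, 1 of them lower (Sfn), against 272 genes. With sex as a covariate 0 were called, and 2 were higher at an unadjusted p under 0.05, with a median of 0.41. Without mouse 8629 0 were called, and 5 were higher at that level, with a median of 0.30.

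Of 19 other nucleotide excision repair genes tested, 0 were called in any comparison. Their median difference was 0.03 in grade 3 and 0.07 in grade 2, near that of all genes, and 1 (Gtf2h4, a subunit of the repair helicase complex TFIIH, 0.67 in grade 2, adjusted p = 0.689) had an unadjusted p under 0.05. Lig1, the ligase of DNA replication and repair, differed by -0.36 in grade 2 (SE 0.20). Among 11 genes of translesion synthesis and nucleotide supply, 1 was called: Tk1, the thymidine kinase of S phase, was lower in treated tumours, with a difference of -1.41 in grade 3 (adjusted p = 0.0447) and -1.20 over both grades (adjusted p = 0.0347). Rrm2, the S phase counterpart of Rrm2b, differed by -0.62 in grade 3 (SE 0.34, adjusted p = 0.626) and by -0.73 in grade 2 (SE 0.34, adjusted p = 0.711). Rrm2b thus did not share the sign of Rrm2 in grade 3, where it differed by 0.33.

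Of 14 genes of the sestrin, GATOR and mTORC1 pathway, 10 polo-like kinase, BTG/TOB and CCR4-NOT genes, 11 NRF2 antioxidant targets and 16 immediate early and dissociation genes, 0 were called in any comparison. In the first of these, Deptor, an mTOR-binding inhibitor, differed by -1.02 in grade 2 (SE 0.38, adjusted p = 0.518) and Prkab1, a subunit of the energy sensor AMPK, by 0.22 in grade 2 (SE 0.12). Plk4, the centriole kinase, differed by -0.48 in grade 3 (SE 0.28), opposite in sign to Plk2, and Tob1, a relative of Btg2, by 0.40 in grade 2 (SE 0.28). Of the NRF2 targets, Gsta4 differed by -0.55 and Gstm1 by 0.64 in grade 3, with adjusted p of 0.484 and 0.516. The immediate early list, to which Btg2 would also belong, had a median of -0.21 in grade 3 and -0.19 in grade 2. The smallest p were those of Nr4a1, at -2.10 in grade 2 (SE 0.52, adjusted p = 0.20), and Egr2, at -0.87 in grade 3 (SE 0.25, adjusted p = 0.17).

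Among the related lists, stress genes under the transcription factor ATF4 were called. ATF4 is the effector of the integrated stress response and is also known to act on Sesn2. Of 18 tested, 4 rose over both grades: Cth, a cysteine-making enzyme, by 1.90 (SE 0.28, adjusted p = 0.0037), Eif4ebp1, a translation inhibitor under mTORC1, by 0.83 (SE 0.15, adjusted p = 0.016), Shmt2, a mitochondrial serine enzyme, by 0.80 (SE 0.16, adjusted p = 0.0327), and Trib3, a pseudokinase, by 1.14 (SE 0.25, adjusted p = 0.0428). In grade 3 only Cth was called (2.13, adjusted p = 0.0059), and in grade 2 only Eif4ebp1 (1.12, adjusted p = 0.022). The median of the 18 over both grades was 0.48. Cth was between 9.18 and 9.42 in treated grade 3 tumours, against 6.43, 6.86, 8.36 and 6.84 in untreated grade 3 tumours, and the groups did not overlap. In grade 2 it was 9.62, 9.25, 8.94 and 9.23 in treated tumours, against 7.88, 7.52, 7.71 and 7.05 in untreated tumours.

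These calls depend on which tumours enter. Without 8688T3 and 8639T4, the tumours with the 3′ excess, 1 of the 18 was called over both grades (Cth), and without mouse 8565 or with sex as a covariate 0 were. Over both grades the median difference of the list was 0.48 with all tumours, 0.52 without mouse 8565, 0.78 with sex and 0.43 without the 2 tumours. In grade 2 it was 0.58 with all tumours, 0.43 without mouse 8565, 0.68 with sex and 0.51 without the 2 tumours. The values with sex rest on 8639T4, the only treated male and 1 of those 2 tumours, so they cannot speak to sex. In grade 3, Cth was still called without those 2 tumours and was not without mouse 8565 or with sex. In grade 2, no member of the list was called under any of these 3 settings or without mouse 8700. Trib3 was highest in those same tumours, at 8.64 in 8639T4 and 8.14 in 8688T3, against 7.34 to 7.94 in the other treated tumours and 6.37 to 7.49 in the untreated ones. The part of RNA quality and sex in these values was not tested. Unlike Psrc1, Cth did not separate mouse 8700 (7.88 and 7.52) from mouse 8565 (7.71 and 7.05) among the untreated grade 2 tumours.

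**Figure D5:**
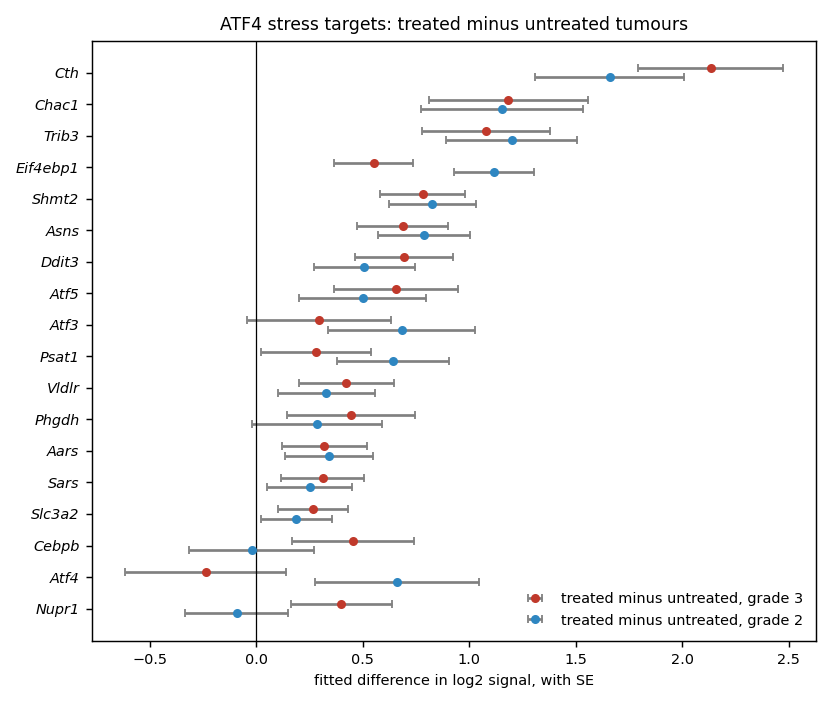
Fitted treated minus untreated differences in log2 signal, with SE bars, for the 18 tested ATF4 stress targets, in grade 3 (red) and grade 2 (blue). Cth lies furthest right, at 2.13 in grade 3 and 1.66 in grade 2.

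Mitosis genes stood the other way. Of 20 tested, 4 fell in treated grade 3 tumours (Anln, Cdc20, Cdca3 and Nusap1), 0 in grade 2, and 6 over both grades (the same 4, Bub1b and Ccnb2), with medians of -1.40, -1.01 and -1.25. Over both grades 1 was called without 8688T3 and 8639T4 (Anln), 0 without mouse 8565, 0 with sex as a covariate and 19 without mouse 8584. The median over both grades was -1.01 without those tumours, -0.98 without mouse 8565 and -1.76 with sex, against -1.25 with all tumours. In these settings 16, 17 and 18 of the 20 were lower at an unadjusted p under 0.05. With all tumours 19 were, against 257 of 7300 genes. In grade 2, 16 of the 20 were lower at that level with all tumours, against 234 of 7300 genes. Without those tumours 4 were (median -0.73), without mouse 8565 2 were (median -0.67) and with sex 16 were (median -1.59). Psrc1, itself a spindle gene, thus had the opposite sign to the mitosis genes tested in grade 3, all 20 of which lay below 0. Cdc20, the activator of the anaphase-promoting complex, was 5.98 to 6.84 in treated grade 3 tumours, against 7.13, 7.96, 8.05 and 8.73 in untreated grade 3 tumours. In mouse 8700 Cdc20 was 7.12 and 7.28, below the 8.22 and 7.75 of the grade 2 tumours of mouse 8565.

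Markers of the tumour epithelium and of other cells showed no call with limma in any comparison. The mean log2 signal of 11 epithelial markers was 10.59 to 11.10 in treated grade 3 tumours, against 10.56 to 10.94 in untreated grade 3 tumours. The mean log2 signal of 13 macrophage markers was 10.01 to 10.34 in treated grade 3 tumours, against 9.95 to 10.22 in untreated grade 3 tumours. That of 15 endothelial and fibroblast markers was 8.69 to 9.05 in treated grade 3 tumours, against 8.60 to 9.14 in untreated grade 3 tumours. In grade 2 it was 8.69 to 9.11 in treated tumours and 9.02 to 9.73 in untreated tumours. All 14 tested endothelial and fibroblast markers had an interaction above 0. At an unadjusted p under 0.05, 4 of 14 were lower in untreated grade 3 than in untreated grade 2 tumours, against 6.7% of all genes. These 4 were the endothelial genes Pecam1, Cdh5, Kdr and Tek. Plk2, Rrm2b and Btg2 were lower at that level too. The mean of 13 lymphocyte markers ran from 4.76 to 6.57 in untreated grade 3 and from 6.02 to 6.65 in untreated grade 2 tumours. In treated tumours it ran from 5.52 to 6.41 in grade 3 and from 5.29 to 6.35 in grade 2. Of the 7 lymphocyte markers tested, 4 had a treated minus untreated difference above 0 in grade 3 and 1 in grade 2. The part of these cells in the member values was not tested, and in bulk tumours fewer cells of a type and less RNA per cell cannot be told apart.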

How the data were processed

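Biotinylated cDNA amplified from 100 ng of total RNA per tumour was hybridised to 1-colour arrays, per the labels. The authors deposited log2 values per probe set; the submitters' processing notes name GCRMA 2.20.0 and R 2.11.0, and that method quantile normalises the arrays. Array medians ran from 6.05 to 6.18 and correlations between arrays from 0.974 to 0.997. The number of arrays limits the precision.

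Of 22690 probe sets, 20380 had 1 gene symbol, 691 several, 1555 none and 64 were controls. For a gene with several probe sets the one of highest mean was used, and the test took the 7300 genes that exceeded the median of the array in 4 or more tumours. A gene could pass through 1 group in which it was high. limma 3.58.1 in R 4.3.3 fitted the 4 groups over 18 tumours, with the mouse as a random block (correlation 0.259), and p-values were adjusted by Benjamini-Hochberg with a threshold of 0.05. Fitted differences weight tumours by this correlation, so they differ somewhat from plain differences of means. The fit was tested on simulated data.

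The members and gene lists were chosen with earlier results of these data known. Named are all members; from the other lists the genes called or, with none called, those with the smallest p; and the 3 genes most like each member. The settings tried were the animal term (none, a fixed block or mouse means), sex, array weights, a trended and robust spread, only the groups compared, a further quantile normalization, centring on array medians, filters, the choice of probe set and leaving out tumours or mice.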

Additional observations from a re-analysis of the deposited data

Results flagged for a closer look

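In 2 of the 40 sets of values formed by the 10 members and the 4 groups, 1 tumour lay far from the others of its group; chance gives about 1 in 20. Plk2 in treated grade 2 tumours was 7.51 in 8688T9, against 8.11, 8.11 and 8.20 in the other treated grade 2 tumours. Btg2 in treated grade 3 tumours was 9.59 in 8688T1, against 8.82 to 9.11 in the other treated grade 3 tumours. The same tumour, 8688T1, had the highest treated grade 3 value of Ercc5 (8.43), Xpc (8.26), Polk (8.33), Plk2 (8.56), Psrc1 (9.97) and Sesn2 (6.75), and of Cdkn1a (11.87). Its Sesn1 (9.19) was the lowest of that group, and its Ddb2 (10.90) and Rrm2b (10.48) lay inside the range of the rest. What sets 8688T1 apart was not tested.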

How the results depend on the processing

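Of 1830 member values under the alternatives, 32 newly passed the threshold and 70 changed sign, 10 of them with a value above its SE in at least 1 of the fits and 60 with both values within their SE. With array weights, 4 of 9 members were called in grade 3, against 374 of 7300 genes, and 5 in grade 2, against 1975. Of these 5, Rrm2b (-0.23) and Plk2 (-0.65) were lower in treated tumours. Over both grades 5 members were called, against 1473 genes, and in the interaction 2, against 124. By grade in untreated tumours 3 were, against 844. With no animal term 3 members were called in grade 3, against 272 genes, and 2 over both grades, against 370. By grade in untreated tumours 1 was, against 111. Leaving out mouse 8584 gave 1 member, Ercc5, in grade 3 and over both grades. Leaving out mouse 8700 gave 1, Psrc1, in the same comparisons. That is no support, since Psrc1 passed the filter only where it was high. In grade 3 the genes called were then 168 and 31. Leaving out 1 tumour gave 0 to 1 members in these comparisons and by grade in untreated tumours (1 without 8565T1, Plk2 at -1.45, adjusted p = 0.0325 in limma).

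The 10 larger changes of sign were Ddb2 in grade 2 with sex as a covariate (-0.036), Sesn1 in grade 3 with array weights (0.33) or without mouse 8584 (0.36; leaving out 1 tumour gave -0.30 to 0.36), Sesn1's interaction with the mean of its probe sets (0.067), Plk2 in grade 2 without mouse 8700 (0.46), Psrc1 in grade 2 without mouse 8565 (-0.009), Psrc1's interaction without mouse 8700 (-0.57), and Psrc1 by grade in untreated tumours with mouse as a fixed block (0.93) or without mouse 8700 (0.61).

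Genes called in grade 3, 34 as reported, were 374 with array weights, 272 with no animal term, 0 with the mean of the tumours of a mouse, 64 with no filter, 12 with only the groups compared, 10 with sex, 16 without mouse 8565, 168 without 8584, 10 without 8629, and 12 to 168 without 1 tumour. In grade 2 (5) they were 1975 with array weights, 37 with no animal term, 0 with mouse means, 10 with no filter, 9 with a floor of log2 5, 20 with only the groups compared, 2 with sex, 10 without 8688T3 and 8639T4, 0 without mouse 8565, 35 without 8584, 10 without 8629, 0 without 8700, and 2 to 35 without 1 tumour. Over both grades (46) they were 1473 with array weights, 370 with no animal term, 0 with mouse means, 29 with the mean of probe sets, 1 with sex, 17 without 8688T3 and 8639T4, 1 without mouse 8565, 218 without 8584, 29 without 8629, and 8 to 218 without 1 tumour. In the interaction (0) they were 124 with array weights, 1 with sex, 3 without mouse 8565, 1 without 8629, and 0 to 14 without 1 tumour. By grade in untreated tumours (13) they were 844 with array weights, 111 with no animal term, 0 with mouse means or mouse as a fixed block, 29 with no filter, 22 with a floor of log2 5, 2 with only the groups compared, 6 without mouse 8565, 24 without 8584, 3 without 8629, 0 without 8700, and 2 to 98 without 1 tumour. The cause of these changes was not tested. Only mice 8688 and 8565 gave tumours of both grades, so mouse as a fixed block could be fitted for the comparisons of grade alone; it called 0 members in each. The counts of related genes called, and of groups without overlap, with tumours or mice left out were chosen after seeing the data.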
